A study of Mus musculus with 2 samples.

Results

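Binding of the small MAF transcription factor MAFK was examined at 8 genes of NADPH supply and the pentose phosphate pathway in mouse ES-E14 cells. The genes were Pgls, Pgd, Taldo1, Tkt, Rpia, Rpe, Me1 and Idh1. A region was assigned to a gene when its summit lay within 50 kb of any annotated transcription start site (TSS) of that gene, and 22 of the 16865 regions of the authors' optimal list met this rule. All 8 genes had at least 1 such region, against 59.3% of 21911 protein-coding genes. The regions are numbered along the chromosome within each gene, from the lowest coordinate upwards.

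The data were 2 biological replicates of 1 group, chromatin immunoprecipitation with sequencing (ChIP-seq) with an antibody to MAFK. ES-E14 is a mouse embryonic stem cell line of strain 129/Ola from a male embryo, with no treatment or genetic change in the labels. Both replicates share 1 source of cells in the labels, so the spread between them may be partly technical. The labels give no second condition, so a call here describes where MAFK was detected and not a response. The control experiment to which the labels point was not analysed here. Only called regions, with no reads, were deposited in the files used here, so the depth behind each value is unknown. The optimal list holds regions that passed the authors' test of reproducibility (irreproducible discovery rate). The conservative list is a shorter one from the same run. It held 16082 regions, against 16865 in the optimal list. Of the 22 regions, 19 (86.4%) were in the conservative list, and Pgd region 1, Tkt region 2 and Idh1 region 1 were not. The share of all optimal regions that overlap the conservative list was not computed. A region of the optimal list need not have been called in each replicate alone. The relaxed lists, 1 per replicate and 1 from the pool of both, are the input to the authors' test and hold background as well. Each replicate also has a thresholded list of its own, from a second processing run.

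The pentose phosphate pathway takes glucose 6-phosphate away from glycolysis. Its oxidative branch reduces NADP+ to NADPH, and its non-oxidative branch interconverts sugar phosphates and supplies ribose 5-phosphate for nucleotides. NADPH is the electron donor for glutathione and thioredoxin reduction and for lipid synthesis, and malic enzyme and isocitrate dehydrogenase are further sources of it in the cytosol. Small MAF proteins have no activation domain of their own. They pair with CNC factors such as NRF2, NRF1 or BACH1 on antioxidant response elements (AREs), and in mouse and human several genes of this pathway are known NRF2 targets, among them Pgd, Tkt, Taldo1, Me1 and Idh1.

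The sequences at the summits are shown because they separate the regions into groups, those with the composite element defined below and those without. Only MAFK was profiled, so its partner at a site is not known. Each is the plus strand of mm10 (GRCm38), 5′ to 3′, for 50 bp to either side of the summit. Capitals mark 5 elements, searched on both strands. These are the composite element TGACTCAGCA or TGAGTCAGCA, the ARE core TGACNNNGC or TGAGNNNGC, the MAF core TGCTGA, the AP-1 element TGACTCA or TGAGTCA, and a CTCF core CCANNAGNNGGC. The composite element contains the ARE core, the MAF core on the other strand and the AP-1 element, so 1 stretch can count for all. The first 3 regions held a composite element and Pgls region 2 held an ARE core, and they lie at chr14:30564573-30564673, chr4:149170831-149170931, chr9:86587170-86587270 and chr8:71594522-71594622.
Tkt region 3: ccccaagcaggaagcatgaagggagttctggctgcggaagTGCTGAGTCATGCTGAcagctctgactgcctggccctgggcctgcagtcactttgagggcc
Pgd region 2: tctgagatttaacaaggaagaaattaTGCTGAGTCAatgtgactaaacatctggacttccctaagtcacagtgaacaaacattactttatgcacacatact
Me1 region 2: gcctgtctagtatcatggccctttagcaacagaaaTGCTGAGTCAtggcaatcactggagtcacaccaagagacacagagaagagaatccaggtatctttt
Pgls region 2: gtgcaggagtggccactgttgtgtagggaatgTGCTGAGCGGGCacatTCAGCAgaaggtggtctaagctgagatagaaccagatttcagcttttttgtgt
In Tkt region 3 the capitals run on past the composite element into another MAF core. In Pgls region 2 an ARE core overlaps a MAF core, and another MAF core on the other strand follows. The next 2 regions were among the stronger ones and held no ARE core, at chr6:70812026-70812126 and chr1:66678782-66678882, and the capitals include the CTCF core in each.
Rpia region 2: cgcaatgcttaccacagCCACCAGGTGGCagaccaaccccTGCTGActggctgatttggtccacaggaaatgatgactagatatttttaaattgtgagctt
Rpe region 1: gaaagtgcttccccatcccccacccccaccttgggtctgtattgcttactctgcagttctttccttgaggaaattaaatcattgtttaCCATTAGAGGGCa
Rpia region 1, at chr6:70786113-70786213, held a MAF core alone. The strongest Me1 region within 10 kb of a TSS, at chr9:86683958-86684058, held none of the 5 elements.
Rpia region 1: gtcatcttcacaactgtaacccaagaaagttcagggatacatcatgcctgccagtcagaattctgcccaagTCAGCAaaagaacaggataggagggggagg
Me1 region 3: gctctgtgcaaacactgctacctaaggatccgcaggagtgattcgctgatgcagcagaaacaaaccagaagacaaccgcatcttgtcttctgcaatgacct
Shorter stretches are given where the window reaches an exon or a transcript start, the palindrome near Taldo1 at chr7:141432440-141432468, the Me1 promoter at chr9:86695902-86695930 and the Idh1 promoter at chr1:65186469-65186497.
Taldo1 region 2: ccaacagcTGCTGACTCAGCAgctgcctt
Me1 region 4: cgcgagaagcGCTGAGTCAcggcggcatc
Idh1 region 2: tcaggatggcTGAGGCAGCgttaagtcct
Tkt region 3, Pgd region 2, Pgls region 2, Idh1 region 2, Rpia region 1 and Me1 region 3 are the strongest within 10 kb of their gene. The others were chosen after their values were seen.

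Most of the 8 genes had a region close to a start site. A summit lay within 10 kb of a TSS for 6 of the 8 genes (75%), Pgls, Pgd, Tkt, Rpia, Me1 and Idh1, against 26.9% of all protein-coding genes. Within 1 kb the count was 3 of 8 (37.5%), namely Pgd, Me1 and Idh1, against 8.65% of all protein-coding genes. Without replicate 2 that count was 0 of 8, against 3.51%, and the authors' other joint lists and replicate 2's own list held 2 of the 3, without Pgd. Within 50 kb it was 8 of 8, against 59.3%. The genes had a median of 4.5 annotated TSSs (2 to 9), against 3 for all genes. With the 5′ end of each gene record as its only start, 5 of 8 genes (62.5%) had a region within 10 kb, against 20.1% of all genes, and 8 of 8 had one within 50 kb, against 55%. The gene lost was Tkt, whose strongest region lies by a start site inside the gene. No test was applied to these counts, since the genes were chosen with results of these data known.

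**Figure D1:**
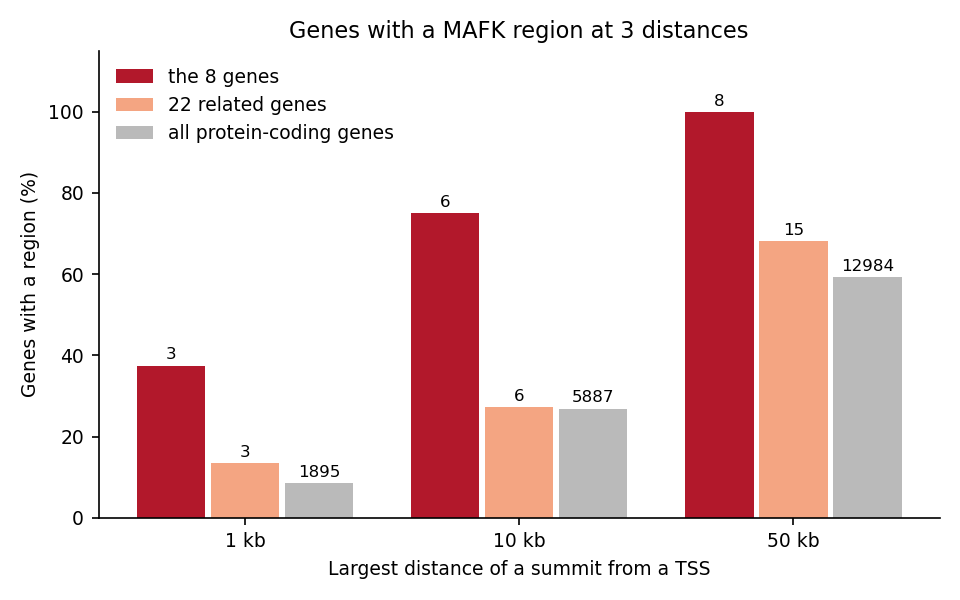
Share of genes (%, y axis) with a region summit within 1, 10 and 50 kb of a TSS (x axis), for the 8 genes, for 22 related genes and for all protein-coding genes. The number above each bar is the count of genes with a region, and at 10 kb it is 6 of the 8 genes, 6 of the 22 related genes and 5887 of all genes.

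The signal value is the authors' own number for each region, of a scale not stated, and serves here to rank regions within a list. Over the 22 regions its median was 34.8 (8.76 to 172.3), against 27.9 (3.80 to 509.4) over the 11986 optimal regions within 50 kb of a protein-coding TSS. The median region near the genes lay at the 61.65th percentile of the list, and the ends of that range show that strong and very weak regions were both present. Over the 6 genes with a region within 10 kb, the strongest such region had a median signal of 57.9, against 31.4 over the 5887 genes with one. Over the 6 of the 22 related genes with one, that median was 46.97, also above that of all genes. The genes had a mean of 2.75 regions within 50 kb, against 1.26 over all genes.

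**Figure D2:**
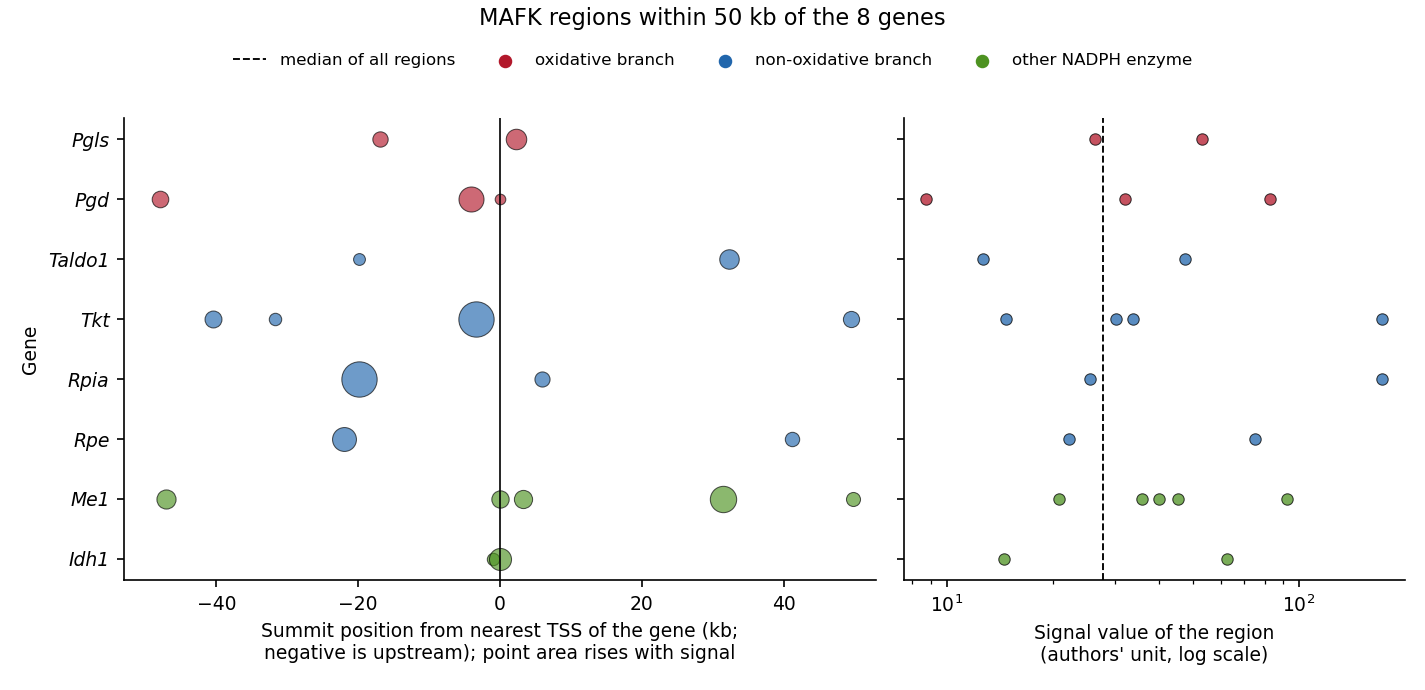
Left, summit position of each of the 22 regions from the nearest TSS of its gene (kb, negative upstream), with point area rising with signal. Right, signal of the same regions in the authors' unit on a log axis, with a dashed line at the median of the whole optimal list (27.9). The regions of highest signal are at Tkt (172.2) and Rpia (172.3), and the weakest, 8.76, lies at the Pgd start.

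Pgls encodes 6-phosphogluconolactonase, the hydrolysis step of the oxidative branch. Its stronger region, Pgls region 2, lay in a Pgls intron 2281 bp downstream of a TSS, and no other protein-coding TSS was nearer. Its signal was 53.1, with 19.7 (rank 5502 of 264306 in its relaxed list) in replicate 1 and 33.5 (rank 2779 of 300000) in replicate 2, and both thresholded lists held it. Pgls region 1, in an intron of the fatty acid transporter gene Slc27a1 16957 bp upstream of Pgls, had a signal of 26.5. That weaker region, not the stronger, held the composite element of this locus.

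Pgd encodes 6-phosphogluconate dehydrogenase, the NADPH-producing step that closes the oxidative branch. Pgd region 2, intergenic and 4110 bp upstream, had a signal of 82.8 (rank 1978). The replicates were close to each other here, with 39.2 (rank 2210) in replicate 1 and 41.7 (rank 1974) in replicate 2. Its composite element was centred 19.5 bp from the summit. The Pgd promoter carried only a very weak call. Pgd region 1, with its summit 3 bp from the TSS, had a signal of 8.76 (rank 16509), and replicates 1 and 2 ranked it 64540 and 87485 in their relaxed lists. It was absent from the conservative list of the same run and from both joint lists of the second processing run. Pgd region 3, 47900 bp upstream in Kif1b and 880 bp from the Kif1b TSS, had a signal of 32.2.

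In the non-oxidative branch, Tkt and Rpia were near the 2 strongest of the 22 regions. Tkt encodes transketolase, which moves carbon units between sugar phosphates. Tkt region 3, at chromosome 14, 30564502 to 30564737, lay in a Tkt intron and had a signal of 172.2, rank 495 of the optimal list. Replicate 1 gave it 64.2 (rank 958) and replicate 2 gave it 107.8 (rank 283), and both thresholded lists held it. The nearest start site was that of an alternative transcript not annotated as protein-coding, 3376 bp away. The nearest protein-coding start lay 15266 bp upstream and the 5′ end of the gene 16264 bp upstream. The place of Tkt in the counts within 10 kb thus rests on the alternative start. Among the 5887 genes with a summit within 10 kb, Tkt ranked 207 by its strongest region. The 3 other regions of Tkt had signals of 14.8 to 33.8 and lay in introns of the neighbours Dcp1a, which encodes an mRNA decapping factor, and Prkcd, which encodes protein kinase C delta. Tkt regions 1 and 4 each held a composite element, and Tkt region 2, the weakest, held none of the 5 elements.

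Rpia encodes ribose-5-phosphate isomerase, which makes ribose 5-phosphate. Rpia region 2, at chromosome 6, 70811965 to 70812182, was intergenic and 19844 bp upstream, and no other protein-coding gene had a nearer TSS. Its signal was 172.3 (rank 493), with 74.6 (rank 712) in replicate 1 and 95.6 (rank 403) in replicate 2. The signal was thus as high as at Tkt, but the window held no ARE core and no composite element. It held a MAF core 7.5 bp from the summit and a CTCF core 27.5 bp from it. Rpia region 1, in a Rpia intron 5840 bp downstream of a TSS, had a signal of 25.6, with 9.05 in replicate 1 and 15.8 in replicate 2.

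Rpe and Taldo1 had no region within 10 kb. Rpe encodes ribulose-phosphate 3-epimerase. Its stronger region, Rpe region 1, lay 21999 bp upstream in an intron of Unc80, a gene for a subunit of a sodium leak channel complex, and only 867 bp from the Unc80 TSS. Its signal was 74.95 (rank 2336), with 30.4 (rank 3123) in replicate 1 and 43.1 (rank 1870) in replicate 2. No ARE core, MAF core or AP-1 element lay in its window, and a CTCF core was centred 43.5 bp from the summit. Rpe region 2, 41106 bp downstream in an intron of Kansl1l, had a signal of 22.25 (rank 10852), with 8.35 (rank 15635) in replicate 1 and 13.8 (rank 9204) in replicate 2. It held an ARE core centred 19 bp from the summit, and of the replicates' thresholded lists only that of replicate 2 held it. Within 10 kb of Rpe the strongest region of the relaxed pooled list had a signal of 10.1, with ranks of 24388 and 181234 in replicates 1 and 2.

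Taldo1 encodes transaldolase, which works beside transketolase. Taldo1 region 2 lay 32301 bp downstream in an exon of Slc25a22, a mitochondrial glutamate carrier gene whose TSS was 298 bp away, and 7 protein-coding genes had a TSS nearer to it than Taldo1. Its signal was 47.4, with 16.6 (rank 6735) in replicate 1 and 31.5 (rank 3048) in replicate 2. The palindrome printed above lies at its summit and reads as a composite element on both strands. Taldo1 region 1, 19843 bp upstream, had a signal of 12.7 and none of the 5 elements. The strongest region of the relaxed pooled list within 10 kb of Taldo1 had a signal of 12.4, with 3.78 in replicate 1 and 7.32 in replicate 2. In the second run, Taldo1 had a called region at nearly this place, 7657 bp from a TSS, with a signal of 25.1, an ARE core and a summit in repeat-masked sequence.

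Me1 had 5 regions, the most of the 8 genes, and its 4 annotated TSSs were also the most widely spread, over 77249 bp. It encodes cytosolic malic enzyme, which makes NADPH from malate. Me1 region 2, in a Me1 intron, was the strongest of these, with a signal of 92.4 (rank 1633) and with 49.4 (rank 1552) in replicate 1 and 42.1 (rank 1943) in replicate 2. It held a composite element 10.5 bp from the summit. It was 31484 bp from an internal start site, of a transcript not annotated as protein-coding. The 5′ end of the gene was 109 kb away, and TSSs of Rwdd2a and Pgm3 were nearer than either. Me1 region 4 lay at the promoter itself, 23 bp downstream of the TSS in the UTR, with a signal of 35.85. Replicates 1 and 2 ranked it 6428 and 5564, with signals of 17.3 and 20.5, and only replicate 2's thresholded list held it. It was the only one of the 22 regions with a GC box, GGGGCGGGG, beside its ARE core and AP-1 element. Me1 region 3 had a signal of 40.2 with 19.3 in replicate 1 and 20.3 in replicate 2. Me1 regions 1 and 5, both over 47 kb away, had 20.9 and 45.4. Me1 region 1 lay in an intron of Pgm3, 2809 bp from a Pgm3 TSS and 127 kb from the 5′ end of Me1.

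Idh1 encodes the cytosolic NADP-dependent isocitrate dehydrogenase. Idh1 region 2 was the strongest promoter region of the 8 genes, with its summit 17 bp upstream of the TSS and a signal of 62.7 (rank 2994). Replicate 1 gave it 20.3 (rank 5293) and replicate 2 gave it 41.3 (rank 2011), and only replicate 2's thresholded list held it. Its ARE core lay 34 bp from the summit, and the summit itself was in repeat-masked sequence. Idh1 region 1, by an internal start site, had a signal of 14.6 and ranks of 41241 and 16245 in replicates 1 and 2.

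Of the 22 regions, 8 (36.4%) lay within 1 kb of the TSS of some protein-coding gene, against 16.6% of the 11986 optimal regions within 50 kb of one. Only 4 of these 8 were at one of the pathway genes, and the other 4 were at Kif1b, Slc25a22, Unc80 and the serine protease gene Prss35. A pathway gene was the nearest protein-coding gene for 11 of the 22 regions. The location was an intron for 14 regions and intergenic for 5. The summit was repeat-masked in 3 regions (13.6%), against 17.1%.

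The composite element lay within 50 bp of the summit in 8 of 22 regions (36.4%), against 27.1% of the optimal regions near genes and 0.0876% of windows 1000 bp to either side of them. The ARE core was in 14 of 22 (63.6%), against 59.2% near genes and 7.53% of the flanking windows. The MAF core was in 14 (63.6%), against 59.5%, and the AP-1 element in 9 (40.9%), against 37.2%. With 1 mismatch allowed in the composite element, the count was 9 of 22 (40.9%), against 51.5%, so the order of the shares turned. The GC box was in 1 region, against 0.659%. The ETS element CCGGAAGT and the CREB element TGACGTCA were in none of the 22, against 0.392% and 0.309%. The CTCF core, added after the sequences had been seen, was in 2 regions (9.09%), against 2.9% near genes and 0.889% of the flanking windows.

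**Figure D3:**
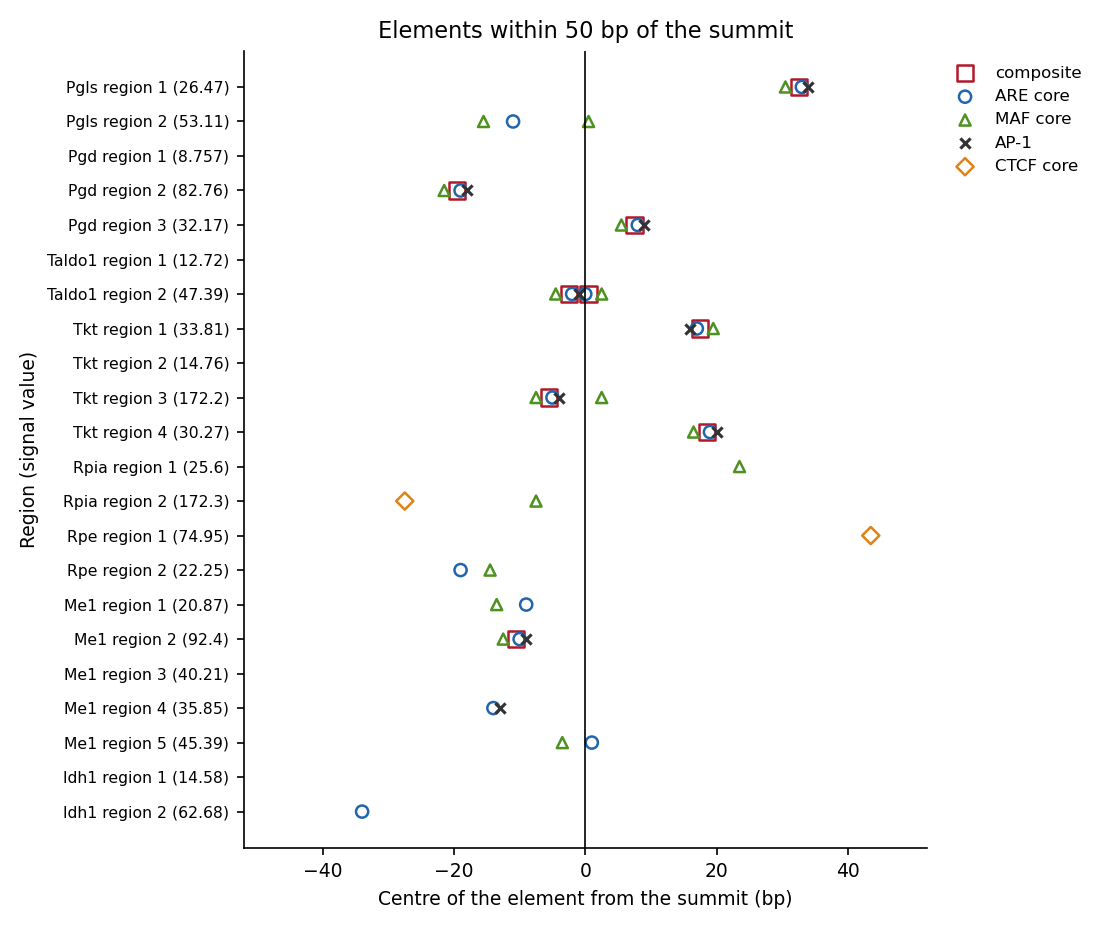
Distance of each element's centre from the summit (bp, x axis) in the 22 regions (y axis, with signal in brackets). Squares are composite elements, circles ARE cores, triangles MAF cores, crosses AP-1 elements and diamonds the CTCF core. At Tkt region 3 the composite element is 5.5 bp from the summit, and Rpia region 2 and Rpe region 1 carry the diamonds.

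Signal was higher with the composite element among these regions, as in the list at large. The median was 40.6 over the 8 regions with it and 30.7 over the 14 without, against 38.6 and 25.3 near all genes. With the ARE core the median was 40.6 and without it 20.2, against 33.2 and 22.3. The element did not order the regions closely. Composite-bearing regions ran down to 26.5 at Pgls region 1, and Rpia region 2 stood at 172.3 without it.

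The same elements were also counted from the sequence side. The genome within 50 kb of the TSSs of the 8 genes held 19 composite elements. Of these, 9 (47.4%) lay in an optimal region, against 24.5% of the 22884 on all assembled chromosomes. That background includes sequence far from genes, and no share for elements near all genes was computed. The palindrome near Taldo1 counted as 2 of the elements, 1 on each strand, and both lay in 1 region. All 3 composite elements near Tkt were in a region, and all 3 near Rpia were in none. The copies outside a region included 1 in a Rpia intron, 255 bp from a start site, where the relaxed pooled list had a signal of 11.8. They also included 1 between genes 38656 bp from Pgd with 9.36. For 5 of the 10 copies outside a region, no region of the relaxed pooled list covered the element. Outside repeat-masked sequence 7 of 12 copies lay in a region, and within it 2 of 7. The TSSs and regions of a locus share sequence, so these copies are not independent.

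**Figure D4:**
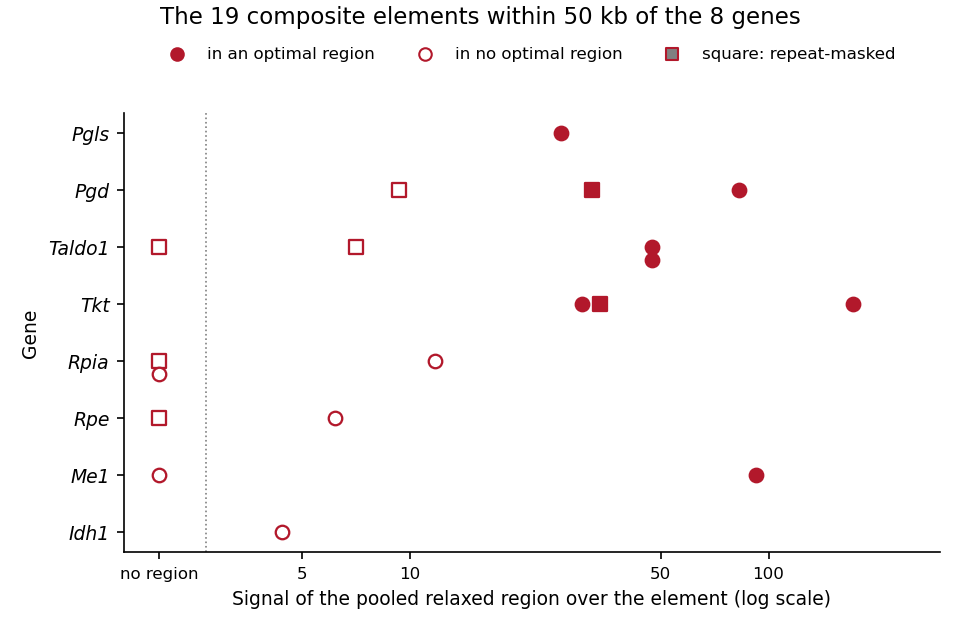
Signal of the relaxed pooled region over each of the 19 composite elements (log axis, authors' unit) by gene, with elements that no region covered at the left. Filled points lie in an optimal region, open points do not, and squares are repeat-masked. Filled points start at 26.5 and open ones end at 11.8.

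All 8 genes were matched in the RefSeq table of promoters on the same assembly, each 300 bp long around a gene start. A gene counted once if any of its promoters held the element. This favours genes with more promoters, and the 8 genes had a mean of 1.38, against 1.22 over all genes. Pgd, Me1 and Idh1 had 2 each. The ARE core was in a promoter of 4 of the 8 genes, Pgd, Taldo1, Me1 and Idh1, against 30.8% of 27025 genes. The MAF core was in none of the 8, against 21.7%, and the composite element was in none, against 0.329%. The AP-1 element was in a promoter of Me1 alone, against 5.95%. The GC box was in a promoter of 3 genes, Tkt, Me1 and Idh1, against 12.9%. The CTCF core was in that of Rpe alone, against 2.82%. The ETS and CREB elements were in none, against 4.31% and 2.03%. Of the 4 genes with an ARE core in the promoter, Idh1 and Me1 had an optimal region on that core. The cores of Pgd and Taldo1 were in no optimal region and in none of the relaxed pooled list. The Pgd promoter with the core, at chromosome 4, 149166033 to 149166332, does not reach Pgd region 1, which lies at 149166620 to 149166915.

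The 5 regions of highest signal, Rpia region 2, Tkt region 3, Me1 region 2, Pgd region 2 and Rpe region 1, were in both replicates' thresholded lists. Of the 22 regions, 8 (36.4%) overlapped both replicates' thresholded lists, against 36% of optimal regions near genes, and 6 (27.3%) overlapped neither, against 37.8%. Replicate 1's list alone held 3 (13.6%), against 7.83%, and replicate 2's list alone held 5 (22.7%), against 18.4%. The thresholded lists come from the second run, with 7748 regions in replicate 1 and 9541 in replicate 2, so this comparison crosses runs and list lengths. The promoter regions of Me1 and Idh1 were among those that replicate 2's list alone held. In the relaxed lists, 14 of the 22 regions (63.6%) had the better rank in replicate 2, against 53.8% of those near genes, and those lists differ in length too. Replicate 1's thresholded list alone gave 11 regions near the genes, 8 with the ARE core and 6 with the composite element, and replicate 2's gave 13, 9 and 5. Element shares over all regions of those lists were not computed. As a ratio of ranks, the widest gaps were at Tkt region 3, ranked 958 in replicate 1 and 283 in replicate 2, and at Me1 region 1, ranked 8179 and 26588.

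**Figure D5:**
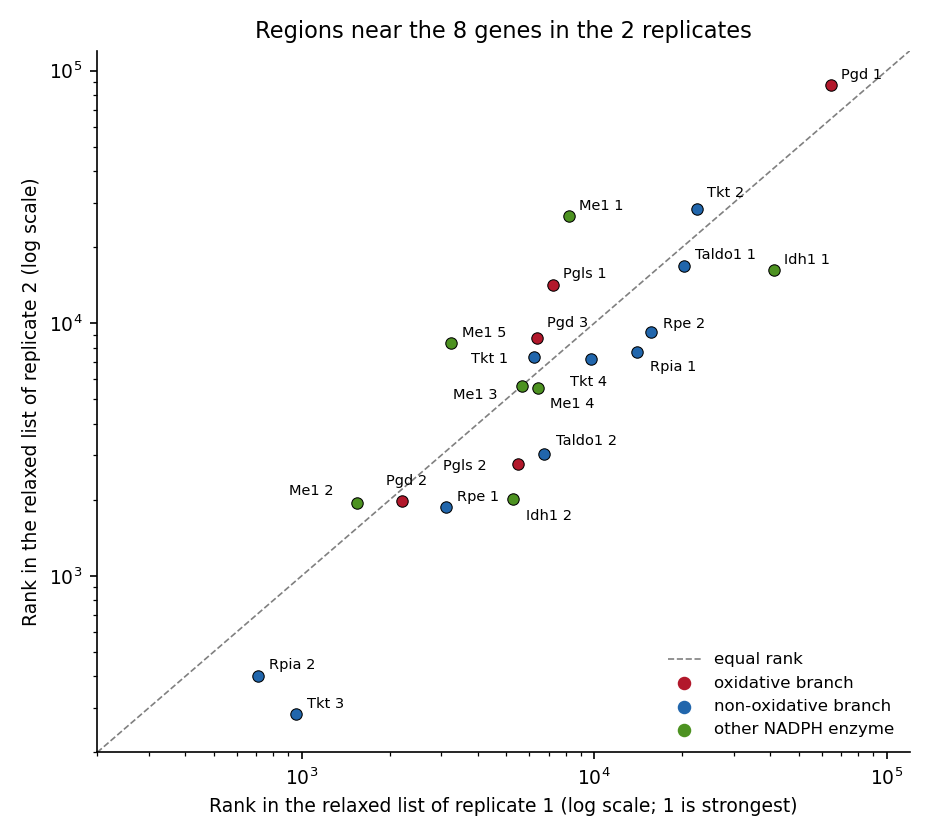
Rank of each of the 22 regions in the relaxed list of replicate 1 (x axis) and replicate 2 (y axis), both log scales with 1 the strongest, and a dashed line at equal rank. Tkt region 3 and Rpia region 2 are at the lower left in both replicates, and Pgd region 1 is at the upper right.

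Genes beside the 8 in the same metabolism were also looked up. Of 22 such genes, 6 (27.3%) had a region within 10 kb, close to the 26.9% of all genes. Within 1 kb the count was 3 (13.6%), against 8.65% of all genes, and within 50 kb it was 15 (68.2%), against 59.3%. Within 10 kb the strongest signals were at Nadk2 with a signal of 102.2, H6pd with 85.2, Idh2 with 59.95, Nadk with 33.99 and Rbks with 30.9. Nadk2 and Nadk encode the mitochondrial and cytosolic NAD kinases that make NADP+. H6pd encodes the endoplasmic reticulum enzyme that runs the first oxidative steps, Idh2 the mitochondrial isocitrate dehydrogenase, and Rbks ribokinase. The transketolase-like Tktl1 and Tktl2 had no region within 50 kb.

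The 50 kb limit cut through a few loci. Just inside it were Me1 region 1 at 49.7 kb with a signal of 20.9 and Tkt region 4 at 49.4 kb with 30.3. Pgd region 3 at 47.9 kb with 32.2 and Me1 region 5 at 47.2 kb with 45.4 were also inside. Me1 region 1 and Tkt region 4 met the limit only through internal start sites of transcripts not annotated as protein-coding. From the nearest protein-coding start they were 118 kb and 69.8 kb away. Me1 region 2, further inside the limit, also met it only through such a start and was 100 kb from the nearest protein-coding one. Just outside were a region 56.8 kb from Idh1 with 25.6 and a strong one 59.2 kb from Rpia with 151.1.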

How the data were processed

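MAFK ChIP-seq regions of 2 replicates were analysed as the authors deposited them, on mm10. Which aligner, peak caller and filters were used is not given in the sources used here. The deposited notes name 2 processing runs. The optimal list is from the first run, and the thresholded lists of single replicates are from the second. The signal of a region is a deposited value whose scale is not stated, and lists were compared by rank. The deposited significance column is a −log10 q-value and the deposited IDR score is a scaled value, and neither was used to choose regions.

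Summits were the region start plus the deposited offset. Start sites were those of GENCODE vM21. Elements were searched without mismatch in the 101 bp around each summit in GRCm38, and in equal windows centred 1000 bp to either side. Overlap meant at least 1 bp shared. The search and overlap code (Python 3.11.15, NumPy 2.4.6) was tested on simulated data. With 1 group no test between conditions exists, and none was run. The text names all 8 genes with all their regions within 50 kb, the strongest relaxed region within 10 kb where a gene had none, and the 5 other pathway genes of highest signal within 10 kb. The members, gene lists and elements were chosen with earlier results of these data known. Shares of regions were set against optimal regions near genes, a population chosen after the data had been seen. Alternatives were other lists, single replicates, start-site sets, distances, windows and mismatches. A further gene of the pathway and a relative of it are not reported here.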

Additional observations from a re-analysis of the deposited data

How the results depend on the processing

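Leaving out replicate 1 or 2 meant using the thresholded list of the other alone. The lowest and highest counts were then 6 and 8 genes with a region within 50 kb, 4 and 6 within 10 kb and 0 and 2 within 1 kb. Over all genes the shares without replicate 1 were 44.7%, 17.4% and 4.92% at these distances, and without replicate 2 they were 37.6%, 13.7% and 3.51%. Without replicate 1 there were 13 regions near the genes, 9 with the ARE core and 5 with the composite element, and without replicate 2 there were 11, 8 and 6. The median percentile ran between 53.6 and 69.9, other pathway genes within 10 kb between 4 and 5, and 6 composite elements lay in a region. Without replicate 2, no gene had a region within 1 kb, and Idh1 and Rpia had none within 10 kb, beside Taldo1 and Rpe. The optimal list cut at its median signal kept 14 of the regions, which its construction explains. Within 10 kb in place of 50 kb, there were 9 regions, 5 with the ARE core and 2 with the composite element, and 2 composite elements in a region, since fewer were counted. With 1 mismatch, 12 composite elements near the genes lay in a region, out of 210. No genome share was computed for elements with 1 mismatch, so this count has no background to compare with. From gene record starts only, 3 of the 22 other pathway genes had a region within 10 kb, against 20.1% of all genes. With those starts, and likewise with protein-coding transcript starts only, there were 19 regions near the genes. Of these, 11 held the ARE core and 6 the composite element. Element shares over all regions were not computed for these start sites or for the lists of single replicates. Of 94 alternatives to the main counts, 82 stayed within 1.5 times them, or, for the percentile, within the replicates' SD of 11.5. That SD comes from the single-replicate medians of 53.6 and 69.9, so it is no independent limit for those medians. The joint lists held mostly the same regions, so the alternatives are not independent. For the signal percentile of single regions, 62 of 82 alternatives stayed within an SD taken from the replicates, and 20 did not. The CTCF core, added later, was in 1 region without replicate 2 and in 2 without replicate 1. No paired analysis was possible because there is 1 group. The depth is unknown, so what it limits could not be measured.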

Other observations

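Signal values differed between the processing runs at a few of the regions. Tkt region 1 had 33.8 in the first run and 48.6 in the list of both replicates of the second, and Pgd region 3 had 32.2 and 41.0. Both have their summit in repeat-masked sequence. The other such region, Idh1 region 2, had 62.7 and 61.2, and Pgls region 1, outside repeats, had 26.5 and 29.45. Most other regions were nearly equal in both runs, such as Tkt region 3 with 172.2 in each. The second run also called 4 regions within 50 kb of the genes that overlapped none of the first, 2 at Taldo1, 1 at Pgls and 1 at Tkt, with signals of 13.98 to 25.1.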
